A study of Mus musculus with 2 samples.

Results

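Transcripts of 8 genes of the cornified envelope and of late squamous differentiation (Cnfn, Krtdap, Sbsn, Ivl, Lor, Tgm1, Tgm2 and Tgm3) were counted in single cells of the mouse cervix. The genes were taken by symbol, and all 8 are among the 31053 genes of the count tables. Cells came from ovariectomised C57BL6/129 females aged 7 to 8 weeks, which had 2 weeks to recover from the removal of the ovaries, and there is 1 library of 9 pooled mice per group. The control group was left untreated over the 15 days of the experiment. The progesterone group received E2 (estradiol) at 100 µg per day in corn oil by injection on 2 days and then a 25 mg progesterone pellet made for 21 days, about 1 mg per day. Estradiol, injections, oil and pellet all differ between the libraries together with progesterone, and their parts cannot be told apart. A pool gives 1 value per group, so the spread between animals is not known and no test between groups was made.

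The cornified envelope is a sheath of cross-linked protein that replaces the plasma membrane of a squamous cell at the end of its life. Involucrin (Ivl) and loricrin (Lor) are classical building blocks of the envelope, cornifelin (Cnfn) is a small envelope protein, and suprabasin (Sbsn) and keratinocyte differentiation associated protein (Krtdap) are secreted products of differentiating squamous cells. The transglutaminases Tgm1, Tgm3 and Tgm2 form the bonds between such proteins. Tgm1 is bound to the membrane of differentiating keratinocytes, Tgm3 acts late in epidermis and hair, and Tgm2 is the tissue transglutaminase, made by many cell types and not specific to squamous ones. The cervical canal is lined by stratified squamous epithelium, in which Krt5-positive basal cells give rise to suprabasal cells with Krt10, Krt13 or Krt16, and by a simple luminal epithelium with Krt8 and Krt18.

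Sbsn and Krtdap are neighbours on chromosome 7 of the mouse genome (GRCm38). Sbsn (ENSMUSG00000046056) lies at chr7:30751471-30756134 and Krtdap (ENSMUSG00000074199) at chr7:30787896-30791097, both on the plus strand, and the 31761 bases between them hold 1 coding gene, Dmkn (dermokine, a secreted protein of the same cells). Cnfn (ENSMUSG00000063651) is on the minus strand of the same chromosome at chr7:25367620-25369724. Ivl (ENSMUSG00000049128, chr3:92570902-92573735) and Lor (ENSMUSG00000043165, chr3:92080271-92083142) lie 487759 bases apart on the minus strand of chromosome 3, with 19 coding genes between them. Tgm1 (ENSMUSG00000022218) is at chr14:55700009-55713926, Tgm2 (ENSMUSG00000037820) at chr2:158116402-158146436 and Tgm3 (ENSMUSG00000027401) at chr2:130012349-130050399. Sbsn overlaps Tmem147os on the same strand, so reads from the shared stretch could be counted for either gene. Tgm2 overlaps Rprd1b on the opposite strand, and whether the counting used the strand is not given in the sources used here. RefSeq promoter windows (GRCm38.p6, 250 bases before to 50 after the start) were matched for 7 of the 8 genes, without Tgm2. The 3 windows below, cut at the start, belong to Krtdap, Sbsn and Cnfn, whose order of onset was read along the squamous axis. Capitals mark matches to the AP-1 motif TGANTCA, where N is any base. The motif was searched on both strands and reads as itself on either. The Sbsn stretch holds 251 bases because its second match spans the start.
Krtdap, chr7:30787655-30787904, plus strand: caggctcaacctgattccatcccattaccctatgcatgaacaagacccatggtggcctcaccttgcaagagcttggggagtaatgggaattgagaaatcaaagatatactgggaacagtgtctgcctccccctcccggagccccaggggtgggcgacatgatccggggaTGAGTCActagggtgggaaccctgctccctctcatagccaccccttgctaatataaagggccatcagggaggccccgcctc
Sbsn, chr7:30751221-30751471, plus strand: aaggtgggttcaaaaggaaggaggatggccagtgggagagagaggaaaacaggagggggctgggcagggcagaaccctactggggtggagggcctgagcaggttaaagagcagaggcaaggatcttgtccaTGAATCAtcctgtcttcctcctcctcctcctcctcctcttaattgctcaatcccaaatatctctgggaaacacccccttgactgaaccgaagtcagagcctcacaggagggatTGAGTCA
Cnfn, chr7:25369725-25369974, minus strand: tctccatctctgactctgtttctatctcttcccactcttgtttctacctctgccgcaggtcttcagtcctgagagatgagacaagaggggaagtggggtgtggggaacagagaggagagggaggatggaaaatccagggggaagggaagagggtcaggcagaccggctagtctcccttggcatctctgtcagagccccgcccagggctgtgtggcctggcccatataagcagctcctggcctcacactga
The motif begins 81 bases before the start in Krtdap and 119 and 6 bases before it in Sbsn, and the letters do not occur in the window of Cnfn. Ivl has a match 116 bases and Lor 48 bases before the start, so 4 of the 7 genes with a window hold the motif. Among 32851 promoter windows of the same length 7.81% hold it. A match describes the letters only.

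The control library held 5368 barcodes with 21658684 UMIs (unique molecules counted per gene) and the progesterone library 10853 barcodes with 44811069 UMIs. After filters on quality and doublets 4579 and 8541 cells were analysed, with medians of 3720 and 4166 UMIs, control first. The libraries share 19 barcodes, and leaving these out changed no count of genes given here by more than 1.5 times. Clusters were named "-like" from fixed markers with the 8 genes left out of the clustering. Basal squamous-like cells numbered 1220 in control and 3604 with progesterone, suprabasal squamous-like cells 522 and 825, and luminal-like cells 226 and 1889. Different clusters hold most of each layer in the 2 libraries. Suprabasal-like cells were mainly cluster 12 in control (421 cells, rich in Krt16 and Krt6b) and cluster 3 with progesterone (821 cells, rich in Krt10 and Krt13). Basal-like cells were mainly clusters 9 and 11 in control, led by cell division genes such as Mki67 and Top2a, and clusters 0 and 1 with progesterone. Control luminal-like cells were mainly clusters 17 and 13, and progesterone ones clusters 4 and 8. Levels are UMIs per 1000000 UMIs of the cell group (CPM), given with exact Poisson 95% intervals. Ratios of CPM have exact conditional binomial 95% intervals. All intervals cover counting error only. A 3′ kit counts about 1 end per transcript, so CPM was not divided by gene length.

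Krtdap was read throughout the squamous-like cells and was highest in the suprabasal-like ones. Its level in control was 441 CPM (423 to 458) in basal-like and 2293 CPM (2246 to 2340.4) in suprabasal-like cells. With progesterone it was 135 CPM (130.1 to 141.0) in basal-like and 665 CPM (644 to 687) in suprabasal-like cells. Both layers thus held less Krtdap with progesterone, and in each library the suprabasal level was the higher. Of 421 control cells in cluster 12, 383 held a Krtdap UMI, with a median of 15 and a highest value of 146 per cell. In progesterone cluster 3, 437 of 821 cells held one, with a median of 1 and a highest value of 43.

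Sbsn was more sharply layered than Krtdap in control. The control level was 88.2 CPM (80.6 to 96.3) in basal-like and 1210.3 CPM (1176.4 to 1245.0) in suprabasal-like cells. The progesterone level was 44.2 CPM (41.2 to 47.4) in basal-like and 212 CPM (199.7 to 224) in suprabasal-like cells. The suprabasal excess was 13.7-fold (12.5 to 15.1) in control and 4.78-fold (4.37 to 5.24) with progesterone, and these intervals do not overlap. For Krtdap the excess was 5.20-fold (4.98 to 5.44) and 4.91-fold (4.66 to 5.17), and these overlap. Krt10, which helped to define the layers, stood at 669 CPM in control and 715 CPM in progesterone suprabasal-like cells.

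Cnfn was read almost only in the control library. There 4606 UMIs (229 CPM of all cells) fell in 302 of 4579 cells, and the 10 highest cells held 45.6% of them, with 619 UMIs in the highest. With progesterone 67 UMIs (1.75 CPM) fell in 11 of 8541 cells. By layer, control Cnfn stood at 3.41 CPM (2.05 to 5.32) in basal-like, 62.3 CPM (54.8 to 70.5) in suprabasal-like and 312 CPM (274 to 354) in luminal-like cells. With progesterone the counts were 0 UMIs in basal-like, 2 in suprabasal-like and 0 in luminal-like cells. The bulk of Cnfn lay outside these layers, in the unnamed cluster 19 described further on.

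Ivl and Lor, the classical envelope proteins, were scarce, and no suprabasal excess was resolved in the named layers. Ivl had 196 UMIs in control and 122 with progesterone, and no cell held more than 5. Of the control UMIs 60 were outside the named layers in the unnamed cluster 6, at 14.6 CPM (11.2 to 18.8). Control cells of cluster 6 also carried Krt10 at 371 CPM and Krt13 at 2479 CPM. The level of Ivl in control was 11.7 CPM (8.99 to 14.9) in basal-like and 6.53 CPM (4.27 to 9.57) in suprabasal-like cells. With progesterone it was 4.39 CPM (3.47 to 5.47) and 4.10 CPM (2.60 to 6.14). The ratio of suprabasal over basal was 0.560 (0.341 to 0.896) in control and 0.933 (0.560 to 1.501) with progesterone. With layers set from keratin UMIs of single cells the direction turned in control, with a log2 ratio of 1.14 for Ivl and 2.13 for Lor in place of -0.82 and -0.65, and for Ivl with progesterone it was 1.02 in place of -0.08 with the libraries clustered apart. Lor had 44 UMIs in control and 14 with progesterone, of which 16 and 8 were in basal-like and 7 and 0 in suprabasal-like cells. Cluster 6 held 10 of the control Lor UMIs. A difference between the named layers was not detectable for Lor at this depth.

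The 3 transglutaminases had 3 different patterns. Tgm1 was low and late. It stood at 1.79 CPM (0.860 to 3.30) in basal-like and 29.9 CPM (24.8 to 35.8) in suprabasal-like control cells, and at 1.11 CPM (0.679 to 1.72) and 13.5 CPM (10.7 to 16.9) with progesterone. Tgm1 was also read in neutrophil-like cells, at 52.7 CPM (26.3 to 94.3) in control and 56.4 CPM (35.8 to 84.7) with progesterone. Tgm3 was nearly unread. All 15 control UMIs were in 14 suprabasal-like cells of cluster 12, and none of the 3 progesterone UMIs was in suprabasal-like cells.

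Tgm2 was highest outside the squamous layers, and within them it was read mainly in basal-like cells with progesterone. In control its highest levels were in neutrophil-like cells at 863 CPM (741 to 998), blood endothelium-like cells at 395 CPM (258 to 579) and luminal-like cells at 352 CPM (312 to 397). With progesterone these were 520.2 CPM (453 to 595), 324 CPM (239.8 to 428) and 326 CPM (314 to 338). The intervals of endothelium-like and luminal-like cells overlap in each library, and neutrophil-like cells stood above luminal-like cells in both. Neutrophil-like cells were shallow, with medians of 581 and 774.5 UMIs. Macrophage-like cells stood at 126 CPM (90.7 to 170.1) in control and 37.5 CPM (26.8 to 51.0) with progesterone, and 18 smooth muscle-like cells of the progesterone library at 321 CPM (190.1 to 507). In control basal-like and suprabasal-like cells Tgm2 stood at 5.02 CPM (3.33 to 7.25) and 4.77 CPM (2.87 to 7.45), which overlap. With clusters 6 and 19 counted as suprabasal the log2 ratio of these 2 levels was 4.00 in place of -0.06. With progesterone it stood at 57.0 CPM (53.6 to 60.6) in basal-like against 8.01 CPM (5.84 to 10.7) in suprabasal-like cells, 7.11-fold (5.28 to 9.81) higher in the basal layer.

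**Figure D1:**
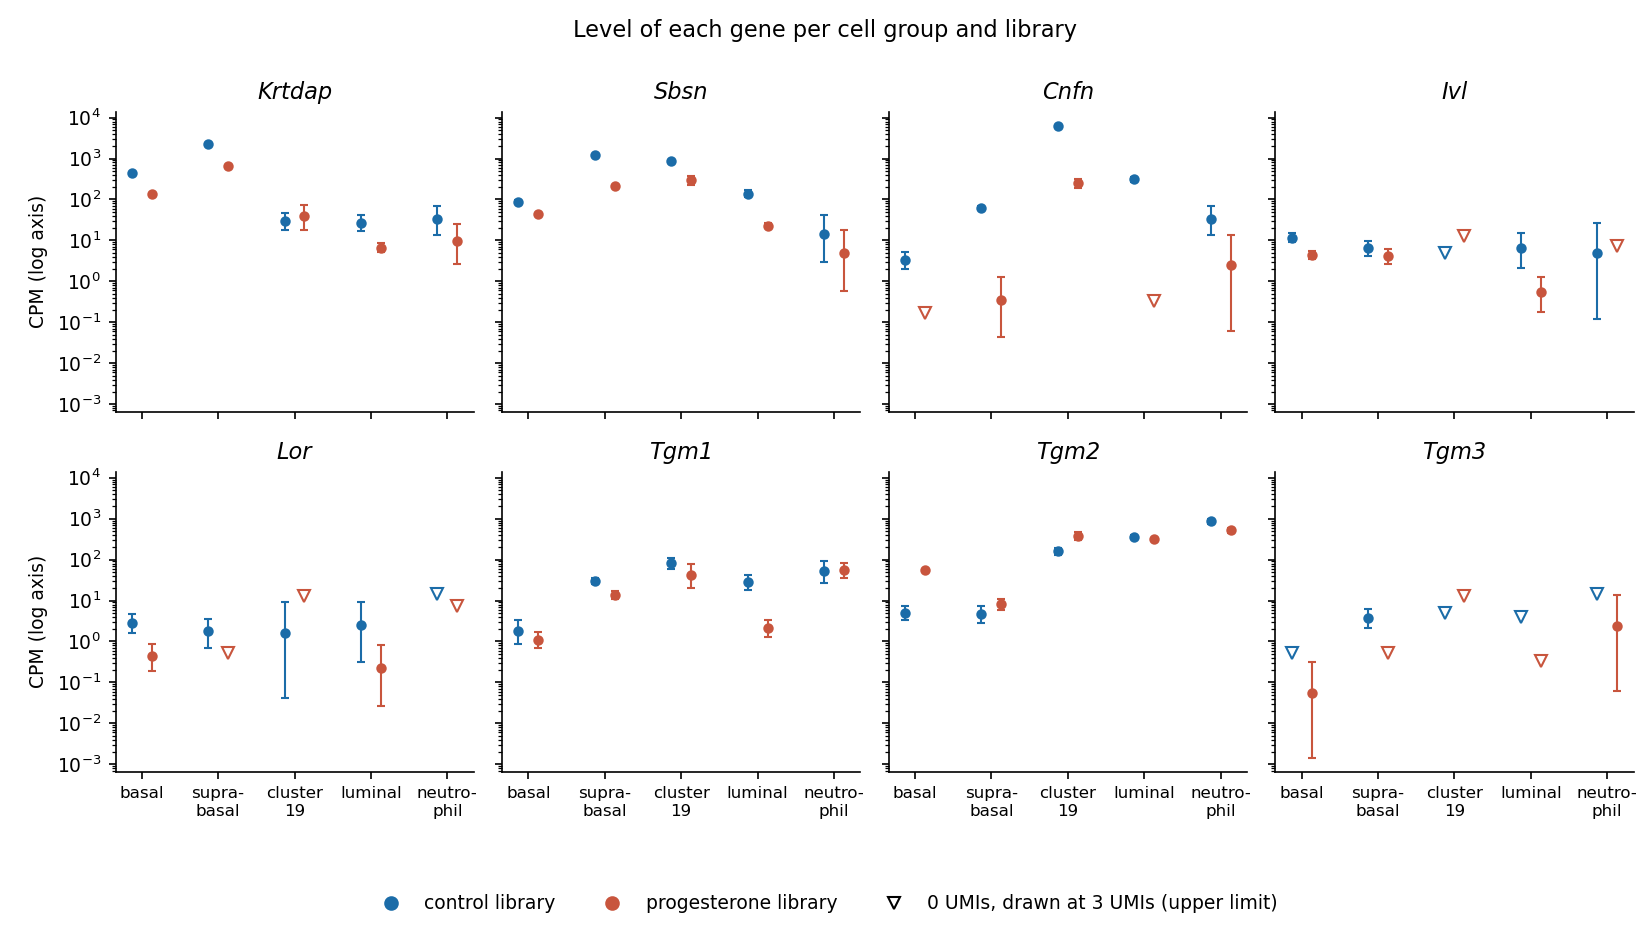
CPM of the 8 genes (log axis) in basal-like, suprabasal-like, cluster 19, luminal-like and neutrophil-like cells of the control (blue) and progesterone (red) library, with exact Poisson 95% intervals, and open triangles at the level of 3 UMIs where none was counted. Krtdap peaks in suprabasal-like cells, Cnfn in cluster 19, and Tgm2 in neutrophil-like cells, at 863 and 520.2 CPM. Sbsn peaks in suprabasal-like cells in control, and with progesterone in cluster 19, at 294 CPM (229 to 372).

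The members were set against all genes by 1 rule, a suprabasal level at least 2-fold above the basal one with the interval above 1 and at least 20 UMIs in the 2 layers. In control 4 of the 8 genes met it, Cnfn at 18.3-fold (11.5 to 30.9), Tgm1 at 16.7-fold (8.76 to 35.7), Sbsn and Krtdap, where 4.17% of all genes tested did. With progesterone 3 genes met it, Tgm1 at 12.2-fold (7.36 to 21.1), Krtdap and Sbsn, against 5.79% of all genes. Cnfn had 2 UMIs in the progesterone layers and was not tested there. With layers set from keratin UMIs of single cells in place of clusters, 2 genes met the rule in control, and the Krtdap log2 ratio was -0.14 in place of 2.38. That count has no share of all genes beside it.

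The order of onset was read along the share of Krt10 among the Krt5 and Krt10 UMIs of a cell. Squamous-like cells with at least 10 such UMIs entered, and 4 bins of this share held at least 20 cells in each library. The control bins held 1083, 281, 129 and 24 cells, from a share of 0 to one of 0.3 to 0.5. Control Krtdap stood at 723, 1780.4, 1971 and 2538 CPM in these bins, and its level in the first bin was already 28.5% of its highest. Control Sbsn stood at 194, 892, 1150.3 and 2166 CPM, with 8.95% of its highest level in the first bin. Control Cnfn stood at 6.87, 17.5, 57.6 and 132 CPM, with 5.21% in the first bin. The first bin to reach 0.5 of the highest level was therefore the second for Krtdap, the third for Sbsn and the last for Cnfn, in the order Krtdap, Sbsn, Cnfn. The step from Sbsn to Cnfn was not resolved, since the Cnfn level of the last bin rests on 34 UMIs in 24 cells (91.4 to 184 CPM) and 0.5 of it lies within reach of the third bin (44.3 to 73.5 CPM).

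Tgm1 rose with Krtdap. Control Tgm1 stood at 5.99, 23.7, 39.6 and 27.2 CPM, and the intervals of its last 2 bins overlap. Control Ivl stood at 11.1, 4.58 and 9.89 CPM and 0 UMIs in the last bin, without a course along the axis. By the count of genes whose highest bin is 1 of the last 2, 6 of 8 genes were late in control, where 38.8% of all genes with a UMI were. Besides Krtdap, Sbsn, Cnfn and Tgm1 these were Lor and Tgm3, which rest on 1 and 3 UMIs in the last bin.

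With progesterone the same bins held 2073, 523, 158 and 38 cells. Progesterone Krtdap stood at 191, 469.7, 875 and 1393 CPM and Sbsn at 63.4, 138, 243 and 469 CPM. Both reached 0.5 of their highest level in the third bin, so no order between them was seen at this bin width. Tgm1 stood at 3.56, 8.10, 9.67 and 13.5 CPM, and Cnfn had 2 UMIs in the first bin and none in the others. Here 3 genes were late, Krtdap, Sbsn and Tgm1, against 46.4% of all genes, so the count does not set the members apart. At an equal Krt10 share the progesterone cells thus held less Krtdap, Sbsn and Cnfn than control cells in each of the 4 bins. Tgm2 ran the other way with progesterone, at 37.0, 18.7, 7.25 and 3.37 CPM, whereas control Tgm2 stayed between 0 and 4.16 CPM.

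**Figure D2:**
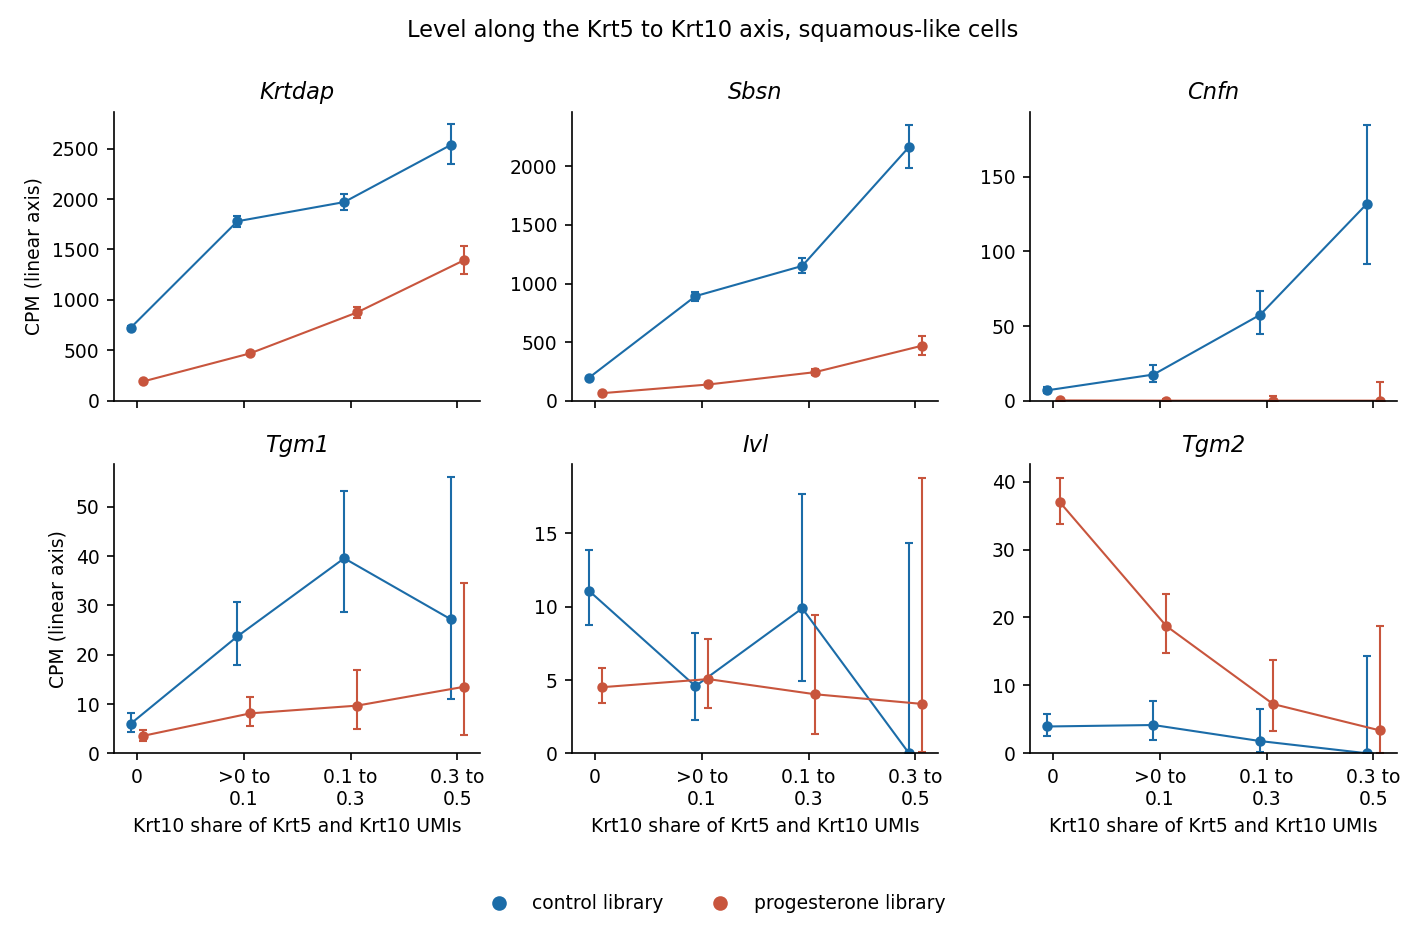
CPM (linear axis, a scale per gene) of 6 genes against the Krt10 share of the Krt5 and Krt10 UMIs of squamous-like cells, control in blue and progesterone in red, with exact Poisson 95% intervals. In control Krtdap is high from the second bin (1780.4 CPM), Sbsn climbs to 2166 CPM and Cnfn to 132 CPM in the last bin, and progesterone Tgm2 falls from 37.0 to 3.37 CPM.

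A finer view used Krtdap itself as the ruler, with squamous-like cells thinned to 2000 UMIs each and grouped by 0, 1, 2 to 3, 4 to 7 and 8 or more Krtdap UMIs. Control cells numbered 1064, 290, 258, 209 and 89. Control Sbsn stood at 113, 138, 324, 830.1 and 1787 CPM over these groups. Control Cnfn stood at 10.8, 5.17, 5.81, 52.6 and 146 CPM, so its level left the floor of the first groups only at 4 Krtdap UMIs. Control Tgm1 went from 8.46 to 28.1 CPM, with overlapping intervals. Control Krt10 went from 102 to 764 CPM. Among these squamous-like cells, those rich in Krtdap thus held the most Sbsn and, at the upper end, Cnfn. This does not cover cluster 19, which lies outside these groups and held 3809 of the 4606 control Cnfn UMIs.

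With progesterone the groups held 3482, 315, 254, 123 and 21 cells. Sbsn stood at 48.8, 114, 181, 276 and 405 CPM, below the control intervals in cells with no Krtdap UMI and in cells with 2 or more. Krt10 went from 70.2 to 3071 CPM, and Cnfn had no UMI in any group. Tgm2 was concentrated in cells without Krtdap, at 62.9 CPM (57.1 to 69.1), and stood at 9.52 CPM (3.49 to 20.7) in cells with 1 Krtdap UMI.

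**Figure D3:**
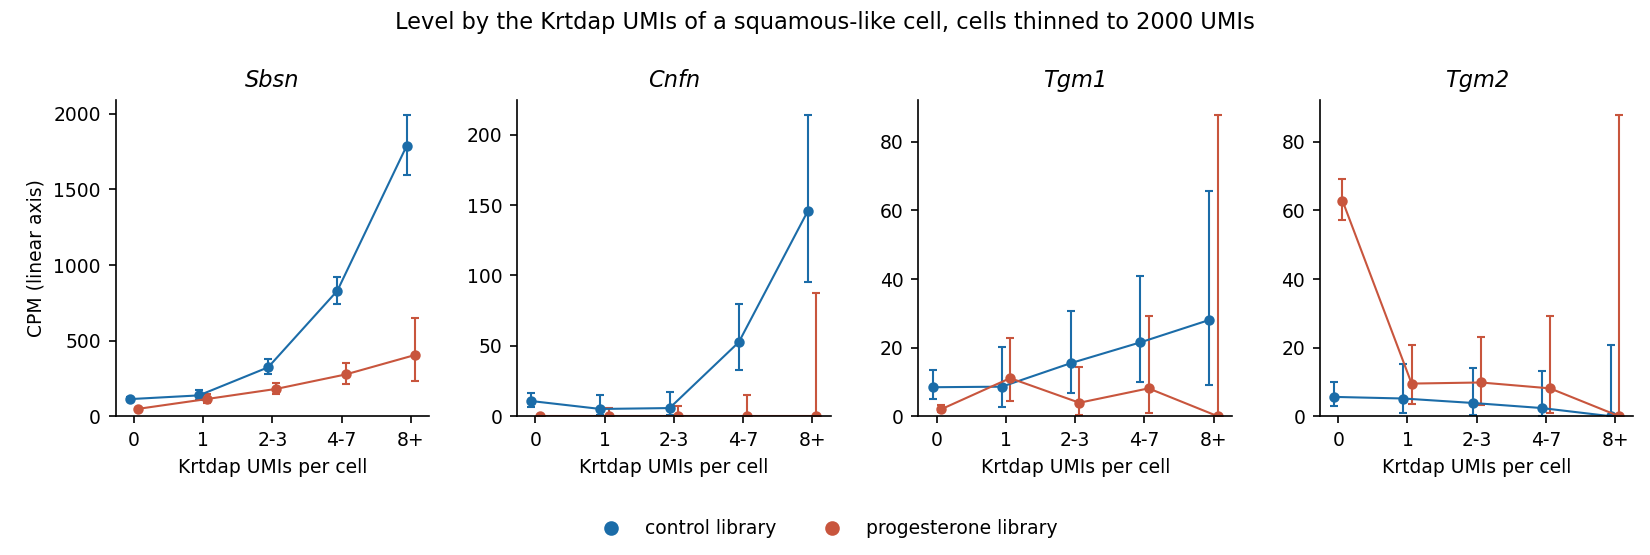
CPM (linear axis, a scale per gene) of Sbsn, Cnfn, Tgm1 and Tgm2 in squamous-like cells grouped by their Krtdap UMIs after thinning to 2000 UMIs, with exact Poisson 95% intervals. Control Sbsn and Cnfn (blue) reach 1787 and 146 CPM in cells with 8 or more Krtdap UMIs, and progesterone Tgm2 (red) is highest, at 62.9 CPM, in cells without Krtdap.

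Most Cnfn sat in cluster 19, a group of 86 control and 17 progesterone cells that stayed unnamed. It held 3809 of the 4606 control UMIs and 59 of the 67 progesterone UMIs. Of the control cells 74 held a Cnfn UMI, with a median of 14.5 and a highest value of 619. Of the progesterone cells 6 held one, with a highest value of 25. The level was 6291 CPM (6093 to 6494) in control and 251 CPM (191 to 324) with progesterone. Thinned to 2000 UMIs, 65 of 80 control cells (81.3%, 71.0% to 89.1%, exact Clopper-Pearson) and 1 of 17 progesterone cells (5.88%, 0.149% to 28.7%) held a Cnfn UMI.

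The other members differed in their share of the cluster 19 signal. Against cluster 12 of the same library Cnfn was 106-fold (92.1 to 123) higher, Tgm2 53.8-fold (28.0 to 116) and Tgm1 2.77-fold (1.93 to 3.95) higher. Sbsn was held at 0.641 (0.584 to 0.702) of the cluster 12 level, with 861 CPM in cluster 19. Krtdap was at 0.0118 (0.00702 to 0.0187) of it, with 18 UMIs. Krtdap, the early gene of the axis, was therefore nearly missing where Cnfn was highest, while Sbsn was present in both.

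The other genes of cluster 19 included many late envelope genes. Of 16 listed envelope genes with at least 20 UMIs in the 2 clusters 13 were at least 2-fold higher in cluster 19 and 1 was lower. The list was written with earlier results of these data known. Rptn, Tchh, Cdsn, Crct1 and the Lce3 genes passed this minimum only through cluster 19, so the count is not read as a trait of it. Of those with at least 20 UMIs in cluster 12 alone, Ppl, Krt78 and Krt80 were higher, Cst6 lower, and Evpl and Dmkn within 2-fold. Of all genes tested between these clusters 16.4% were higher and 44.8% lower. Crct1, a cysteine-rich cornified envelope gene, stood at 4413 against 1.77 CPM, the late cornified envelope gene Lce3a at 2788 CPM against no UMI, and periplakin (Ppl) at 418 against 104 CPM. Lce3 genes are near-identical copies, and how the counting split reads between them is not given in the sources used here. Of 11 proteases and inhibitors 8 were higher and 3 lower, among them the skin aspartic protease Asprv1 (509 against 2.06 CPM) and the inhibitor Spink5 (335 against 3802 CPM). Of 15 regulators 2 were higher, Prdm1 (127 against 0.295 CPM) and Hopx (47.9 against 2.65 CPM), and 5 were lower, among them the basal regulator Trp63 (3.30 against 85.5 CPM). Klk10, Klk11, Klk13, Asprv1, Prdm1 and Hopx also passed the minimum only through cluster 19, and lower ones such as Trp63 only through cluster 12.

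Cluster 19 also carried genes outside these lists. The surface antigen Psca stood at 20187 CPM in control and 27269 CPM in progesterone cells. Of the luminal marker keratins Krt19 stood at 4038 and 7422 CPM, and Krt7 at 3077 and 2620 CPM. Krt8 and Krt18 were lower than in luminal-like cells, at 319 and 750 CPM against 3036 and 2895 CPM in control. With progesterone Krt8 and Krt18 stood at 426 and 1265 CPM against 879 and 2389 CPM. Of 6 neutrophil markers S100a8 and S100a9 were high, at 11435 and 17990.4 CPM in control and 9050 and 12812 CPM with progesterone. The defining ones were near 0, with Csf3r at 18.2 and 4.26 CPM against 1601 and 1646 CPM in neutrophil-like cells, and Cxcr2 at 14.9 CPM and 0 UMIs against 2406 and 2399.7 CPM. The 6 markers summed to 29511 and 21871 CPM in cluster 19, and to 118227 and 115759 CPM in neutrophil-like cells. Their part in the Cnfn level was not tested. Between the libraries, cluster 19 differed in Crct1 as in Cnfn, with 4413 CPM in control and 848 CPM with progesterone, and in Lce3a, with 2788 and 153 CPM.

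**Figure D4:**
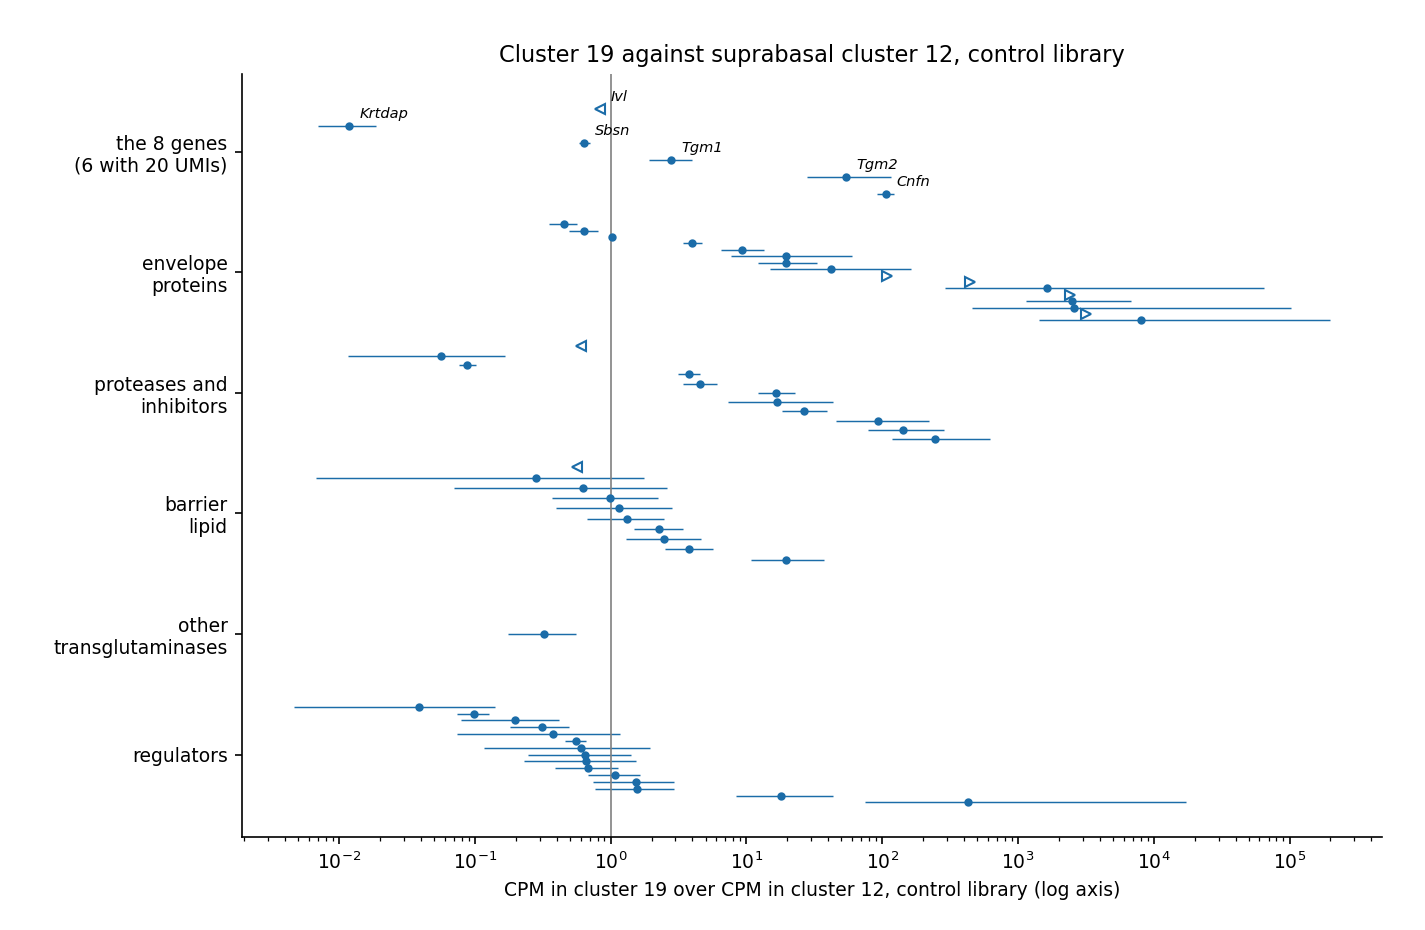
Ratio of CPM in cluster 19 over cluster 12 of the control library (log axis) for genes with at least 20 UMIs in the 2 clusters, with exact 95% intervals, right-pointing triangles for lower bounds where cluster 12 had no UMI and left-pointing ones for upper bounds where cluster 19 had none. Among the 8 genes Cnfn lies at 106-fold and Krtdap at 0.0118, and 13 of 16 envelope genes lie above 2-fold. Of these, Rptn, Tchh, Cdsn, Crct1 and the Lce3 genes reached 20 UMIs only through cluster 19.

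In luminal-like cells 6 of the 8 genes had more than 3 UMIs in control and 5 with progesterone, against 30.3% and 42.7% of all genes of the tables. Counts there must be read against free RNA, which gives UMIs in cells that do not make a gene. In control, Cnfn (312 CPM) and Sbsn (139 CPM) stood above macrophage-like cells, at 11.99 CPM (3.27 to 30.7) and 5.99 CPM (0.726 to 21.7). Cnfn was near the floor in fibroblast-like and endothelium-like control cells, with 1 and 2 UMIs (10.9 and 30.4 CPM), and had 33.5 CPM (13.5 to 69.1) in neutrophil-like ones. Control Sbsn stood at 14.4 CPM (2.96 to 42.0) in neutrophil-like, 76.4 CPM (30.7 to 157, 7 UMIs) in fibroblast-like and 228 CPM (128 to 376, 15 UMIs) in endothelium-like cells. Before thinning, the endothelium-like signal lay in 4.55% of 44 cells, and 22.1% of luminal-like cells held an Sbsn UMI. Depth differed, with medians of 1088.5 and 2673 UMIs. Thinned to 2000 UMIs, 1 of 6 endothelium-like cells held Sbsn (16.7%, 0.421% to 64.1%), too few cells to set against luminal-like ones. Erythrocyte-like control cells held more, with 290.3 CPM (214 to 385) of Sbsn beside 3114 CPM of Krt5. The luminal Sbsn level thus lay within the range of the other classes, and the part of free RNA in it was not tested. Control Krtdap was at 27.2 CPM (16.8 to 41.6) against 27.0 CPM (12.3 to 51.2) in macrophage-like cells and is read as background. With progesterone, luminal Krtdap (6.65 CPM) lay below the 9.81 CPM (2.67 to 25.1) of neutrophil-like and the 106 CPM (87.2 to 127) of macrophage-like cells and is read as background too. Progesterone Sbsn (23.0 CPM, 19.9 to 26.3) lay above neutrophil-like cells (4.91 CPM, 0.594 to 17.7) and below macrophage-like cells (51.5 CPM, 38.8 to 67.0), which also carried Krt5 at 2138 CPM against 522 CPM in luminal-like cells. Thinned to 2000 UMIs, Sbsn was found in 26 of 152 control luminal-like cells (17.1%, 11.5% to 24.1%) and in 67 of 1574 progesterone ones (4.26%, 3.31% to 5.37%). The shares in macrophage-like cells were 1.69% (0.0429% to 9.09%, n = 59) and 7.25% (4.02% to 11.9%, n = 193). Median depths were 2673 and 4650 UMIs in luminal-like and 1472 and 1900 in macrophage-like cells.

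All 241 luminal Cnfn UMIs of control were in cluster 17, in 40 of its 123 cells, with at most 75 per cell. Cluster 17 expressed 10 of 11 luminal markers but also Krt5 at 3149 CPM and Krt13 at 6745 CPM. Luminal-like cells with a Cnfn UMI stood at 9466 CPM of Krt13, 4274 CPM of Krt8 and 6040 CPM of Psca, and those without at 3802, 2684 and 1167 CPM. Cells with Cnfn thus held more Krt8 than those without, which include the other luminal clusters. Cluster 17 as a whole stood at 3810 CPM of Krt8 in control, and no comparison within it was made. Median depth was 4096 UMIs in cells with a Cnfn UMI against 2377 in those without. Thinned to 2000 UMIs, 32 of 152 control cells held Cnfn (21.1%, 14.9% to 28.4%) and 0 of 1574 progesterone cells, which allows a share of cells with a UMI of up to 0.191%, from a floor of 3 counts. Without cluster 17, which holds 4 progesterone cells, 3 genes had more than 3 UMIs in control luminal-like cells.

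Tgm2 was the gene of the set that luminal-like cells carried in both libraries. Thinned to 2000 UMIs, 54 of 152 control cells (35.5%, 27.9% to 43.7%) and 660 of 1574 progesterone cells (41.9%, 39.5% to 44.4%) held it. Levels differed between luminal clusters, with 464 CPM (409 to 526) in control cluster 17 and 41.2 CPM (17.8 to 81.3) in control cluster 13. With progesterone, cluster 4, led by Clca1, Tff1 and Olfm4, stood at 488 CPM (467 to 509), cluster 13 at 253 CPM (210.3 to 301) and cluster 8 at 185 CPM (172 to 199). Tgm1 was in control luminal-like cells at 28.5 CPM (17.9 to 43.2), from 22 UMIs that were all in cluster 17, and at 2.11 CPM (1.27 to 3.29) with progesterone.

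The libraries were then compared layer by layer, counting genes at least 2-fold lower or higher with progesterone among those with at least 20 UMIs. In suprabasal-like cells 4 of the 6 genes that passed this minimum were lower, where 6.1% of all genes tested were lower and 23.5% higher. Sbsn was at 0.175 (0.164 to 0.186) of its control level, Krtdap at 0.290 (0.279 to 0.301), Tgm1 at 0.453 (0.335 to 0.609) and Cnfn, with 2 progesterone UMIs, at 0.00572 (0.000689 to 0.0209). Ivl was at 0.627 (0.342 to 1.14) and Tgm2 at 1.68 (0.962 to 3.04), intervals that include 1. Over the alternatives the Tgm2 log2 ratio ran from -1.85 to 0.99, so it has no settled direction, and that of Ivl ran from -1.66 to 0.60. The median log2 ratio of all genes in this layer was 0.37, so the lower genes went against it. Scaling without the most abundant genes moved the median of all genes by 0.21 in basal-like, 0.18 in suprabasal-like and 0.11 in luminal-like cells. Tgm3 had 15 control UMIs and none with progesterone, and Lor 7 and none, both under the minimum.

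Since the layer is mostly cluster 12 in control and cluster 3 with progesterone, the ratios were also taken within cluster 3, which holds 101 control and 821 progesterone cells. There Krtdap was at 0.635 (0.582 to 0.692), with 1041 against 660.4 CPM. Sbsn was at 0.472 (0.412 to 0.542), with 445 against 210.2 CPM. Tgm1 was at 0.4002 (0.242 to 0.692) and Cnfn at 0.00448 (0.000527 to 0.0171), with 47 against 2 UMIs. The 4 genes were lower within the shared cluster as well, Krtdap by less than 2-fold. With a finer clustering (Leiden resolution 2) 2 genes counted as lower, with a log2 ratio of -0.57 for Krtdap, -1.30 for Sbsn and -0.66 for Tgm1.

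In basal-like cells 3 of 6 genes were lower, against 7.48% of all genes, and 1 was higher, against 10.0%. Krtdap was at 0.307 (0.291 to 0.325), Ivl at 0.377 (0.268 to 0.531) and Lor, with 16 against 8 UMIs, at 0.155 (0.0574 to 0.384). Different clusters fill this layer in the 2 libraries. Within clusters 0 and 1 Ivl was at 0.674 (0.213 to 3.42) and 0.809 (0.195 to 7.17). Within clusters 9 and 11 Ivl was at 0.629 (0.279 to 1.29) and 0.792 (0.369 to 1.63), and each of these intervals includes 1. The part of the cluster mix in the layer ratios was not tested. Sbsn at 0.501 (0.448 to 0.562) lay just outside the 2-fold limit. Within clusters 0 and 1 Sbsn was at 0.808 (0.501 to 1.39) and 1.47 (0.955 to 2.37), intervals that include 1. Within clusters 9 and 11 it was at 0.663 (0.493 to 0.881) and 0.552 (0.428 to 0.707). Tgm1 was at 0.620 (0.277 to 1.48), and Cnfn had 19 control UMIs and none with progesterone, under the minimum. Tgm2 was 11.4-fold (7.81 to 17.2) higher.

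The basal Tgm2 signal was spread over many cells. Of progesterone basal-like cells 20.01% held a Tgm2 UMI and of control ones 1.72%, and after thinning to 2000 UMIs 358 of 3357 (10.7%, 9.64% to 11.8%) and 3 of 855 (0.351%, 0.0724% to 1.02%). Cluster 0, led by Apoe, Trp63 and Igfbp5, held 859 of the 1026 UMIs, at 90.7 CPM (84.7 to 96.9), and cluster 1 stood at 21.4 CPM (17.8 to 25.5). Within cluster 0 the ratio was 6.03 (3.05 to 14.0), from 8 control UMIs in 258 cells, and within cluster 1 it was 1.18 (0.604 to 2.65). The level in cluster 0 was above that of progesterone macrophage-like cells (37.5 CPM) and suprabasal-like cells (8.01 CPM), and within the interval of fibroblast-like cells (74.96 CPM, 50.6 to 107).

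Krtdap did not move alike in every basal cluster. It was lower with progesterone within clusters 0, 9 and 11, at 0.454 (0.322 to 0.657), 0.457 (0.397 to 0.523) and 0.456 (0.403 to 0.514). Within cluster 1 it was 2.39-fold (1.82 to 3.19) higher, with 259 against 108 CPM, and the control value rests on 54 UMIs. Median depths, control first, were 1436 and 4298 UMIs in cluster 0 and 1806 and 5235 in cluster 1. In clusters 9 and 11 they were 5235.5 and 5740.5 and 7703 and 6089. The part of depth in these ratios was not tested. Cluster 1 is led by Nos1 and Col17a1 and held 221 control and 1093 progesterone cells.

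In luminal-like cells 4 of 5 genes were lower, where 6.89% of all genes were lower and 15.6% higher. Cnfn had 241 control UMIs and none with progesterone. All were in cluster 17, whose 4 progesterone cells bound little, since 3 UMIs there would be 102 CPM against 448 CPM in control. Tgm1 was at 0.0739 (0.0378 to 0.143), Sbsn at 0.166 (0.130 to 0.211) and Krtdap, at background in both libraries, at 0.245 (0.147 to 0.423). Tgm2 was at 0.924 (0.816 to 1.05). Without cluster 17 the count was 2, and the log2 ratio was -1.09 for Sbsn and 1.75 for Tgm2, in place of -2.60 and -0.12. Within cluster 13, which both libraries hold, Tgm2 was 6.13-fold (3.02 to 14.5) higher with progesterone and Sbsn at 0.527 (0.204 to 1.42).

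**Figure D5:**
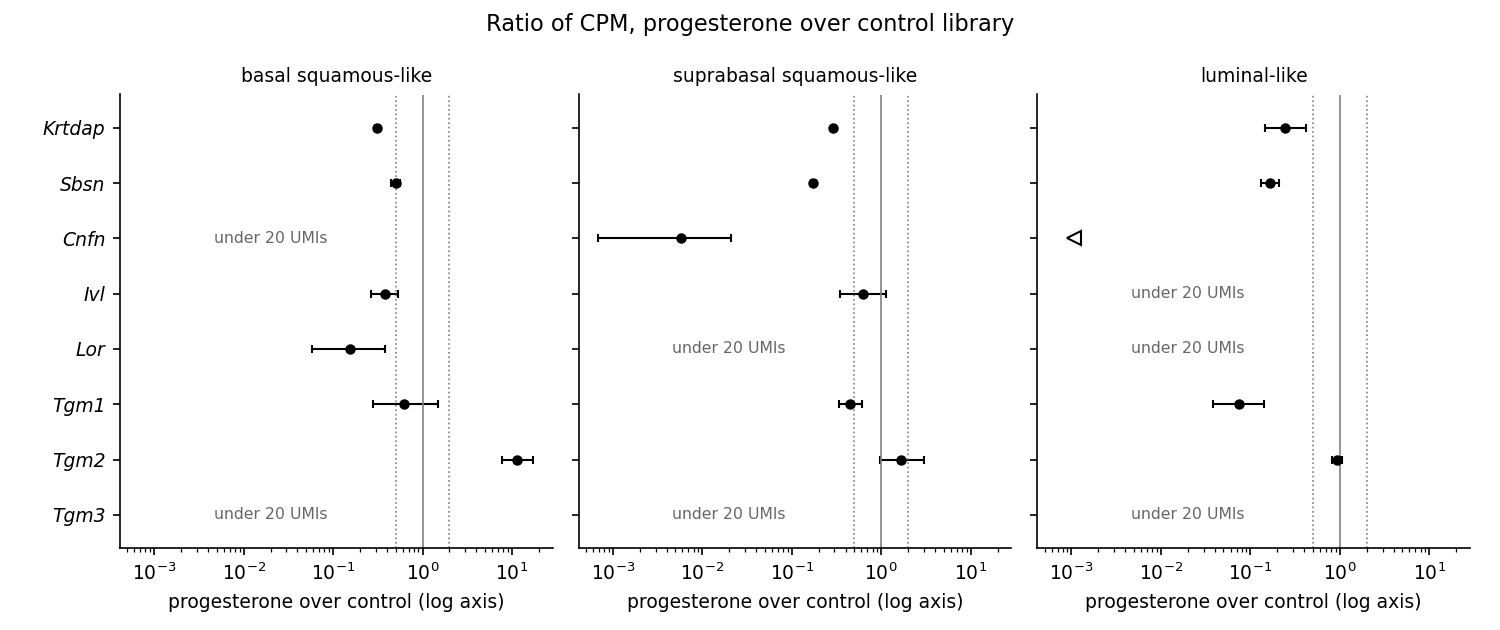
Ratio of CPM in the progesterone over the control library (log axis) for the 8 genes in basal-like, suprabasal-like and luminal-like cells, with exact 95% intervals, a line at 1, dotted lines at 0.5 and 2, and a left-pointing triangle at the ratio that 3 UMIs would give where no progesterone UMI was counted. Krtdap lies between 0.245 and 0.307 in the 3 layers, and Tgm2 is above 2 in basal-like cells alone, at 11.4.

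The genes around the set were taken from 5 lists that were written with earlier results of these data known. Of 35 other envelope proteins 8 had 20 UMIs in suprabasal-like cells. Of these 2 were at least 2-fold higher with progesterone, Krt80 at 2.88 (1.91 to 4.49) and trichohyalin (Tchh) at 9.22 (3.39 to 35.1) from 4 control UMIs. Another 2 were lower, cystatin M (Cst6) at 0.0723 (0.0584 to 0.0886) and Dmkn at 0.393 (0.381 to 0.406). The list's median log2 ratio of 0.40 was near the 0.37 of all genes. In luminal-like cells 10 of 13 were lower and 1 higher, with a median of -1.39 against 0.06 for all genes. Among the lower ones were envoplakin (Evpl) at 0.159 (0.137 to 0.185) and periplakin (Ppl) at 0.386 (0.346 to 0.431), both plakins of the envelope scaffold. Cluster 17 holds 123 of the 226 control luminal-like cells and 4 progesterone ones. It also carried Krt5 at 3149 CPM and Krt13 at 6745 CPM in control. The part of cluster 17 in these luminal ratios was not tested. In basal-like cells 2 of 7 were lower and 3 higher.

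Tgm5 was the 1 other transglutaminase of 7 with enough UMIs, and it was lower in all 3 layers. Its level in suprabasal-like cells was 69.6 CPM in control and 30.1 CPM with progesterone, a ratio of 0.433 (0.355 to 0.526). In basal-like and luminal-like cells the ratio was 0.106 (0.0669 to 0.163) and 0.112 (0.0892 to 0.140). The part of the cluster mix in these ratios was not tested.

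Of 18 enzymes and carriers of barrier lipids 11 passed in suprabasal-like cells, and 5 were lower and 2 higher. The ceramidase Acer1 had 30 control UMIs and none with progesterone, and Sdr9c7, which acts on the lipids bound to the envelope, was at 0.0364 (0.00425 to 0.140). The lipase Lipm was at 4.40 (2.70 to 7.57) and the sphingomyelinase Smpd1 at 2.22 (1.37 to 3.72). Of 18 proteases and inhibitors 8 passed, and 5 were lower and none higher. Serpinb3a had 28 control UMIs and none with progesterone, and Serpinb2 was at 0.0855 (0.0603 to 0.118). The membrane proteases St14, at 1.65 (1.34 to 2.04), and Prss8, at 1.56 (1.16 to 2.12), ranked highest of this list by the interval bound nearest to 1. The median log2 ratio was -1.67 for this list and -0.40 for the lipid list.

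Of 20 regulators of differentiation 15 passed in suprabasal-like cells, with 4 higher and 3 lower and a median of 0.22. Among the lower ones Maf was at 0.174 (0.0870 to 0.323). Grhl2 was at 3.35 (2.61 to 4.34) and Hopx at 6.14 (3.08 to 13.9). The regulators were not left out of the clustering, and Trp63 also names basal-like cells, so the layers are not independent of this list. Of all genes 4.17% in control and 5.79% with progesterone were at least 2-fold higher in suprabasal-like than basal-like cells, with the interval above 1. Of the 15 regulators that passed, 7 were at least 2-fold higher in control and 8 of 15 with progesterone. Among these, chosen after their values were seen, Zfp750 was 4.83-fold (3.699 to 6.37) higher in suprabasal-like than basal-like cells in control and 4.46-fold (3.85 to 5.18) with progesterone, Ovol1 3.87-fold (2.81 to 5.38) and 3.36-fold (2.46 to 4.59), and Klf4 2.07-fold (1.92 to 2.24) and 2.20-fold (2.07 to 2.33).

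The genes most like each member were ranked by Pearson's correlation of log2(CPM + 10) over 30 pairs of cluster and library with at least 50 cells, among 11864 genes. The pairs share libraries and differ in depth, and the values are a description. Cnfn was most like Atg9b (r = 0.91), Crct1 (0.90), Lce3c (0.90), Il1f8 (0.88) and Calcb (0.87). Krtdap was most like Krt14 (0.92), the partner of Krt5 in basal filaments, then Duox1 (0.89), Lancl1 (0.88), Gcat (0.87) and Duoxa1 (0.87). Sbsn was most like Csta1 (0.85), Cst6 (0.82), its neighbour Dmkn (0.82), Slc6a8 (0.81) and Spink5 (0.81). Tgm1 was most like Dgat2 (0.88), Neat1 (0.84), Slc27a4 (0.83), Glrx (0.82) and Il1f9 (0.81). Tgm2 was most like St3gal1 (0.88), Selenok (0.86), Lasp1 (0.86), Myl12b (0.86) and Hpcal1 (0.84). The highest value for Ivl was 0.78, with Mrps22, followed by Eif2b2 (0.76), Dsg3 (0.75), Mif (0.75) and Mtap (0.74). Lor and Tgm3 had too few UMIs to be ranked. Within the set Sbsn lay between the others, with 0.64 to Krtdap and 0.62 to Cnfn, while Krtdap and Cnfn had 0.013. Cnfn and Tgm1 had 0.75, and Tgm2 and Krtdap had -0.79.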

How the data were processed

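Single-cell RNA of mouse cervix was captured with a 10x 3′ kit, 1 library per group. The deposited files hold raw UMI counts per gene and barcode, made by the authors with Cell Ranger 3.0.2 on mm10, per the submitters' processing notes and the file headers. Other settings are not given in the sources used here. Cells needed 200 detected genes, and those above 20% mitochondrial UMIs were dropped. Scrublet (scanpy 1.11.5) scored doublets, and the highest scores were removed at a rate that grew with library size (181 control and 680 progesterone cells). The libraries were clustered together (Leiden, resolution 1, 2000 variable genes, 30 components, 15 neighbours), without mitochondrial genes, the 8 genes or the genes of the lists other than regulators. Clusters were named from fixed markers, so names are rebuilt and not the authors'. CPM intervals are exact Poisson and shares exact Clopper-Pearson at 95%, and they cover counting error only. A count of 0 was set to a floor of 3 counts for bounds. The ratio and its interval were tested on Poisson counts simulated from suprabasal-like means. Such counts lack the spread of real counts between cells, so the intervals were not tested against it. The members, lists and naming limits were chosen with earlier results of these data known. Named list genes were the 2 highest and 2 lowest ratios of progesterone over control per list in suprabasal-like cells, ranked by the interval bound nearest to 1, and other list genes were chosen after their values were seen. A result this rule would name is not reported here. With 1 library per group no test between groups, and no adjusted p-value, was computed. Python 3.11.15, numpy 2.4.6, scipy 1.17.1 and pandas 2.3.3 were used.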

Additional observations from a re-analysis of the deposited data

Results flagged for a closer look

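Krtdap, a secreted product of differentiating squamous cells, had opposite ratios of progesterone over control within basal-like clusters. The ratio was 2.39 in cluster 1, and 0.454 in cluster 0, 0.457 in cluster 9 and 0.456 in cluster 11. Each interval lay on its own side of 1. Control cells of clusters 0 and 1 were shallower, with medians of 1436 and 1806 UMIs against 4298 and 5235 with progesterone. With 1 library per group the difference between clusters was not tested, nor was the part of depth in it.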

How the results depend on the processing

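With layers set from keratin UMIs in place of clusters, the Krtdap log2 ratio of suprabasal over basal in control was -0.14 in place of 2.38, 2 genes in place of 4 were higher in the control suprabasal layer, and 6 in place of 3 were lower with progesterone in the basal layer. At Leiden resolution 2, 2 in place of 4 genes were lower with progesterone in the suprabasal layer. Without cluster 17, an alternative chosen after seeing the data, 3 in place of 6 genes were found in control luminal-like cells and 2 in place of 4 were lower with progesterone there. Of the genes highest late on the Krt10 axis with progesterone there were 5 under a stricter cell filter and 8 with Krt1 for Krt10, in place of 3. The cause was not tested in any of these. Counts of genes under alternatives have no share of all genes beside them and are not read as a trait of the 8 genes. Of 259 values of single genes under alternatives 158 stayed within the interval of the reported value and 100 left it, and 1 value past 2-fold, that of Krtdap above, changed sign. In all 22 values had the opposite sign, the others for Tgm2, Ivl and Lor. With clusters 6 and 19 counted as suprabasal, the log2 ratio of progesterone over control there was -0.88 for Krtdap, -1.70 for Sbsn and -1.20 for Tgm2. Thinning to 4000 UMIs was not run for the luminal counts. No paired analysis was possible because each group has 1 library. Ivl, Lor and Tgm3 are limited by depth.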
